A study of Mus musculus with 8 samples.

Results

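The chromatin around 8 CC chemokine genes, Ccl2, Ccl7, Ccl12, Ccl3, Ccl4, Ccl5, Ccl6 and Ccl9, was examined in alveolar macrophages (AMs), the resident macrophages of the airspaces. Accessible regions were taken wherever an ATAC-seq peak of any library overlapped one of these gene bodies or the 20 kb on either side of it (mm10, GENCODE M21), and peaks that shared at least 1 base between libraries were merged. This gave 50 regions of 82424 in the whole series, with 47 seen in 2 or more libraries and 33 seen in all 8. In ATAC-seq a transposase cuts open DNA, so that a peak marks a stretch of accessible chromatin. It measures neither transcription nor secreted protein.

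AMs were sorted from the bronchoalveolar lavage of adult C57BL/6J mice. The paper's figure legends name the KO cells of this assay as mature AMs in some places and immature AMs in others, and the labels say only AMs. The KO group carried Cd11cCre+ and Rxrab fl/fl, so that the floxed Rxra and Rxrb genes, which encode the nuclear receptors RXRα and RXRβ, were deleted in cells that express CD11c (4 libraries, replicates 1_2, 1_3, 2 and 3). The WT group carried the same floxed Rxrab fl/fl alleles without Cre (4 libraries, replicates 1_2, 1_3, 3 and 4). CD11c is expressed by AMs and also by dendritic cells, and no Cre-positive group without floxed alleles was analyzed here. The labels give neither the sex of the animals nor whether replicates 1_2 and 1_3 came from separate mice.

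CC chemokines are small secreted proteins that draw leukocytes along a concentration gradient by engaging G protein–coupled receptors on the cells that respond. Ccl2, Ccl7 and Ccl12 act on CCR2 and mobilize monocytes, Ccl3, Ccl4 and Ccl5 draw monocytes and lymphocytes, and Ccl6 and Ccl9 are CCR1 ligands of rodents. The genes lie in tandem on mouse chromosome 11, a layout that arose by duplication, and macrophages are a well-known source of their products.

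The strength of a peak is given as tags, the number of tags extended to 200 bp that covered its highest base (the summit), worked back from the deposited fold and p-value of the peak. The lists held 60363 to 72484 peaks a library. The background that the peak caller used genome-wide, which follows depth, was 1.12 to 1.86 tags in KO libraries and 1.42 to 2.26 in WT libraries, highest in WT replicate 1_3. For comparison between genotypes, tags were scaled to a common library median, and 1 fit with limma was made over all 47499 regions with a peak in every library. Of 10 AM marker genes, 9 had a peak within 1 kb of a start site in every library, Chil3 being the exception. The corresponding counts were 0 of 4 T cell markers, 0 of 4 B cell markers, 1 of 4 NK cell markers (Klrb1c), 1 of 4 epithelial markers (Epcam), 1 of 3 endothelial markers (Pecam1), 1 of 3 fibroblast markers (Pdgfra), 2 of 4 neutrophil markers and 3 of 4 monocyte markers. In these 8 lists no promoter with a peak in every library differed between genotypes at an adjusted p of 0.05 (limma), and the others were not fitted. Among the AM markers, the promoter region of Itgax, the gene whose product is CD11c, was higher in KO (log2 difference 0.55 ± 0.10 SE, adjusted p = 3.83e-05) and that of Fabp4 was lower (−0.70 ± 0.14 SE, adjusted p = 0.000224), in the limma fit. Only the KO group carried the Cd11cCre driver, and whether DNA of the driver adds tags at the Itgax promoter was not tested. An accessible promoter does not check the deletion itself, which the paper reports as efficient from the mRNA of both genes. Of the 12 regions over the Rxra gene body that were present in every library, 1 was higher in KO and 0 were lower. The 1 such region over Rxrb was not called. Over all regions 5.81% were called higher and 7.03% lower.

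The genes form 2 groups. Ccl2 (chr11:82035571-82037453), Ccl7 (chr11:82045712-82047525) and Ccl12 (chr11:82101845-82103400) are all on the plus strand, and their windows cover 93.5 kb. Ccl5 (chr11:83525778-83530518), Ccl9 (chr11:83572919-83578636), Ccl6 (chr11:83587882-83593087) and Ccl3 (chr11:83647844-83649355), on the minus strand, and Ccl4 (chr11:83662584-83664683), on the plus strand, span windows of 161.8 kb. The Ccl2 to Ccl12 windows held 12 regions, 9 of them in every library, and the Ccl5 to Ccl4 windows held 38, of which 24 were in every library. This was 12.8 and 23.5 regions per 100 kb, respectively.

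The promoter sequences below, from the RefSeq promoter table (GRCm38.p6), are shown because they belong to members whose start site lay in or beside open chromatin. The table matched 4 of the 8 members: Ccl12, Ccl9, Ccl6 and Ccl3. Each runs 5′ to 3′ along the gene for the 250 bases that end at the base before the RefSeq start site. That start equals the GENCODE start used for the distances of regions at Ccl12, Ccl9 and Ccl6, and lies 23 bp upstream of it at Ccl3. Capitals mark matches, on either strand, to 1 of 6 patterns: AP-1 (TGANTCA), C/EBP (TTNCNNAA), PU.1 (GAGGAAGT), IRF (GAAANNGAA), NF-kB, and DR1 with at most 2 mismatches. DR1 is the direct repeat with a spacer of 1 base to which RXR heterodimers, such as those with PPARγ, are known to bind.
Ccl12 promoter, chr11:82101595-82101844, plus strand: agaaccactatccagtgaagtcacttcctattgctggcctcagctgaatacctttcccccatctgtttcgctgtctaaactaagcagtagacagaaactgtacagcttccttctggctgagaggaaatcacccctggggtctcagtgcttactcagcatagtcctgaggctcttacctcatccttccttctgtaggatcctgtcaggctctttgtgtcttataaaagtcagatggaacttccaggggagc
Ccl9 promoter, chr11:83578637-83578886, minus strand: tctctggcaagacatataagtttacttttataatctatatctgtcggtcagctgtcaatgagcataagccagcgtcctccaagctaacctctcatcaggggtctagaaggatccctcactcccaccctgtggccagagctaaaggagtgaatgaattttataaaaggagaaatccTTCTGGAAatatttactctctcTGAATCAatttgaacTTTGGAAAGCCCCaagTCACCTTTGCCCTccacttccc
Ccl6 promoter, chr11:83593088-83593337, minus strand: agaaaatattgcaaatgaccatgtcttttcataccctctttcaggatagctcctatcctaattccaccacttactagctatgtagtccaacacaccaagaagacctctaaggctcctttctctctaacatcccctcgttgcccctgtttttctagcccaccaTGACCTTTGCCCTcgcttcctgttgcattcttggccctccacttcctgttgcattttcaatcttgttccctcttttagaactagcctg
Ccl3 promoter, chr11:83649379-83649628, minus strand: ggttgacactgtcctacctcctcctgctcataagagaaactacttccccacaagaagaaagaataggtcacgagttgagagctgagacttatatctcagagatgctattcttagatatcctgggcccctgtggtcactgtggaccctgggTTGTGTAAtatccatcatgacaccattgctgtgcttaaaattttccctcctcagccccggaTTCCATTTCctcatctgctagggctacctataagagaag

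The 250 bases before Ccl12 held no match to these 6 patterns. The Ccl3 promoter, which lies in the 1 promoter region that passed the limma threshold, held a C/EBP match that begins 100 bases before the RefSeq start site and an IRF match that begins at 39 bases. The Ccl6 promoter held a DR1 match that begins 88 bases before the start. The Ccl9 promoter held the most matches: an AP-1 match at 53 bases, C/EBP matches at 75 and 38 bases, an NF-kB match at 35 bases that overlaps the latter, and a DR1 match at 22 bases. Of 32851 promoters of the table, read over the same 250 bases, 8.24% held a DR1 match, 36.8% a C/EBP match, 7.13% an IRF match, 6.75% an AP-1 match, 3.9% an NF-kB match and 2.44% a PU.1 match. A match says only that these letters are present.

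The next sequences, read from the GRCm38.p6 genome on its plus strand, are the 201 bases centered on the summits of the 3 distal regions that differed between genotypes and of the region with the most tags in each group of genes. Capitals again mark matches to the 6 patterns.
Region 21519 bp downstream of the Ccl7 start site, chr11:82067131-82067331, plus strand: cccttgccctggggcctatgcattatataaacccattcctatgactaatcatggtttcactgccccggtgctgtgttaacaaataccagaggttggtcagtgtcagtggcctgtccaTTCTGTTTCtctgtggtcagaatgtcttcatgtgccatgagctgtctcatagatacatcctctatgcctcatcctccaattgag
Region 13599 bp upstream of Ccl12, chr11:82088146-82088346, plus strand: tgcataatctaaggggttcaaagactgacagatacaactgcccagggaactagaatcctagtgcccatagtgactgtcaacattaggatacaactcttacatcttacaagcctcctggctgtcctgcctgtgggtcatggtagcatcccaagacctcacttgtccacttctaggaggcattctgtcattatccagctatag
Region 6185 bp downstream of the Ccl9 start site, chr11:83572351-83572551, plus strand: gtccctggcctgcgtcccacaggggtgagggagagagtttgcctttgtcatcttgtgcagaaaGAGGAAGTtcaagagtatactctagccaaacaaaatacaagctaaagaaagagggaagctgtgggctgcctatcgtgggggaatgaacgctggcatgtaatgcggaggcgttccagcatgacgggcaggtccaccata
Region 18966 bp upstream of Ccl2, chr11:82016505-82016705, plus strand: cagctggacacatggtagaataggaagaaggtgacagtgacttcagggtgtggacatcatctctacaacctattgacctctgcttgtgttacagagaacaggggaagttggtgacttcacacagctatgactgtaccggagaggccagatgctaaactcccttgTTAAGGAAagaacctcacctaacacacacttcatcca
Region 7690 bp upstream of Ccl6, chr11:83600677-83600877, plus strand: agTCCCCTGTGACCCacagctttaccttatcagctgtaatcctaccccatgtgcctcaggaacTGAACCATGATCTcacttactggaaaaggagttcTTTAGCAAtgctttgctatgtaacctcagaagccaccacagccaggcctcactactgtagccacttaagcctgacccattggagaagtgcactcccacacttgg

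The region downstream of Ccl7 held an IRF match that begins 17 bases past its summit, and the one downstream of Ccl9 held a PU.1 match that begins 37 bases before it. The region upstream of Ccl12 held none of the patterns. The region upstream of Ccl6 held a C/EBP match across its summit and DR1 matches that begin 98 and 37 bases before it. Across the 47 member regions seen in at least 2 libraries, within 100 bases of the summit, 24 held C/EBP (51.1%, against 42.7% of all 72711 such regions), 9 held IRF (19.1% against 7.02%), 7 held DR1 (14.9% against 8.95%), 5 held AP-1 (10.6% against 11.9%), 5 held PU.1 (10.6% against 10.7%) and 2 held NF-kB (4.26% against 2.86%). These shares are descriptions of neighboring regions of 1 chromosome and were given no test.

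**Figure D1:**
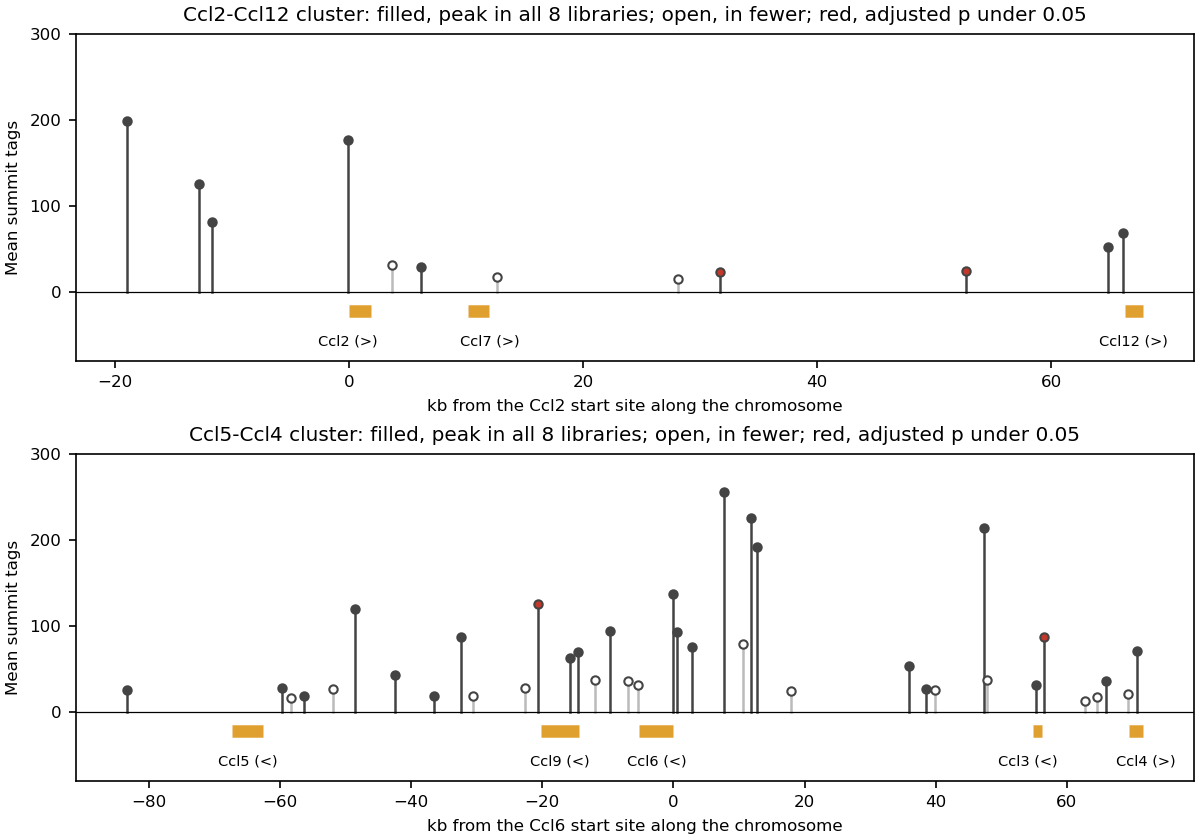
Mean tags at the summit (linear axis) of each of the 50 regions against distance in kb from the Ccl2 start site (top) or the Ccl6 start site (bottom). Orange bars are gene bodies with their strand as arrows, filled points had a peak in all 8 libraries, open points in fewer, and red points had an adjusted p under 0.05 between KO and WT; the tallest points stand upstream of Ccl2 and upstream of Ccl6.

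At the monocyte chemoattractant genes the most tags were found at and upstream of Ccl2. The Ccl2 promoter region (chr11:82035132-82035728) has its summit 79 bp before the start site. It held 183, 181, 157 and 157 tags in KO libraries 1_2, 1_3, 2 and 3, and 172, 201, 211 and 150 tags in WT libraries 1_2, 1_3, 3 and 4. The genotypes overlapped, and the scaled difference, KO minus WT, was 0.11 on the log2 scale (95% interval −0.08 to 0.29, limma adjusted p = 0.479). Ranked by the deposited −log10 p-value, which weighs tags against the local background, this promoter stood at the 89.8th percentile of the peaks of a library (median over libraries). The region with the most tags in the Ccl2 to Ccl12 windows lay 18966 bp upstream of Ccl2 in an intron of Gm31522 (chr11:82016405-82016965). It held 198, 194, 169 and 148 tags in KO and 212, 268, 204 and 198 in WT. No KO library exceeded a WT library before scaling, but the scaled values overlapped (log2 difference −0.10, 95% interval −0.28 to 0.08, limma adjusted p = 0.498).

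Ccl7 had no region within 1 kb of its start site. Its nearest ones were a region 3983 bp upstream that was present in every library at 18 to 40 tags and a region 2536 bp downstream, past the gene's end, with a peak in 2 KO and 3 WT libraries at 13 to 21 tags. The Ccl12 promoter region (chr11:82101160-82101899), with its summit 158 bp before the start, held 49, 48, 80 and 61 tags in KO and 77, 85, 73 and 72 in WT. KO replicates 1_2 and 1_3 were the lowest and KO replicates 2 and 3 lay among the WT libraries after scaling or above them. The log2 difference was −0.18 (95% interval −0.49 to 0.13, limma adjusted p = 0.487).

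A pair of distal regions of this group passed the limma threshold, and at each KO was higher. The region 21519 bp downstream of the Ccl7 start (chr11:82067039-82067466) is intergenic, lies 9.41 kb from the start of Ccl11, an eosinophil chemoattractant, and so cannot be assigned to either gene from its position. It was weak, with 30, 28, 30 and 22 tags in KO and 24, 22, 13 and 19 in WT. After scaling, the KO libraries held 26.1 to 33.8 tags and the WT libraries 11.9 to 23.2, so that the groups did not overlap. The log2 difference was 0.72 ± 0.21 (SE, n = 4 and 4, a 1.65-fold change; limma adjusted p = 0.0134, exact two-sided permutation p = 0.0286, the smallest that 4 against 4 libraries allow). It was 0.66 without KO replicate 2 and 0.54 without WT replicate 3, with limma adjusted p-values of 0.055 and 0.0995. The region 13599 bp upstream of Ccl12 (chr11:82087981-82088405), also intergenic, held 21, 23, 34 and 32 tags in KO and 19, 23, 25 and 14 in WT. Here KO replicates 2 and 3 stood well above all WT libraries after scaling, at 38.3 and 38 tags. KO replicate 1_3, at 23.2, was just above the WT range of 15.8 to 22.9 tags, and KO replicate 1_2, at 20.9, lay within it. The log2 difference was 0.65 ± 0.21 (SE, a 1.57-fold change; limma adjusted p = 0.0315), and it ranged from 0.52 to 0.65, with adjusted p-values of 0.0585 to 0.147, without KO replicate 2 or 3 or WT replicate 1_2, 1_3 or 4.

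The stretch from Ccl9 to the upstream flank of Ccl6 held the region with the most tags at these genes. The Ccl6 promoter region (chr11:83592699-83593279) covers the start site and a UTR exon of Ccl6 inside an intron of the long noncoding gene E230016K23Rik, and its summit lies 66 bp past the start. It held 130, 119, 155 and 123 tags in KO and 127, 146, 138 and 158 in WT, with a log2 difference of 0.10 (95% interval −0.13 to 0.34, limma adjusted p = 0.631). A further region, 544 bp upstream of the same start, held 57 to 88 tags in KO and 93 to 126 in WT. It was lower in each KO library before scaling, but overlapped after it (log2 difference −0.25, 95% interval −0.49 to 0.00, limma adjusted p = 0.189).

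Upstream of Ccl6, 3 regions at 7690, 11757 and 12660 bp had mean tags of 255.8, 225.5 and 191.9, which were among the 5 highest of the 50 regions. The first, with the most tags of all member regions (chr11:83600541-83600992, in an intron of E230016K23Rik), held 265, 256, 216 and 212 tags in KO and 274, 279, 288 and 256 in WT. The scaled values were centered on the same level, 254.3 ± 8.8 tags for KO against 256.3 ± 34.2 for WT (SD over 4 libraries), with a log2 difference of 0.00 (95% interval −0.18 to 0.17, limma adjusted p = 0.996). The peak caller's local background rose with the signal along this stretch, to 15.22 times the genome-wide background at that region. As a result its deposited fold was 9.28 to 11.73, below the 19.05 to 22.80 of the Ccl2 promoter, although its tags were more numerous.

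The Ccl9 promoter region (chr11:83578276-83578735) has its summit 67 bp past the start in a UTR exon. It held 60, 75, 75 and 62 tags in KO and 70, 89, 54 and 77 in WT, and the genotypes overlapped (log2 difference 0.14, 95% interval −0.15 to 0.43, limma adjusted p = 0.586). The region 6185 bp downstream of that start (chr11:83572196-83572655), just past the end of the gene, was higher in KO. It held 153, 139, 135 and 98 tags in KO and 106, 137, 125 and 108 in WT. After scaling, KO replicates 1_2, 1_3 and 2 (152.3, 140.4 and 152.2 tags) lay above all WT libraries and KO replicate 3 (116.2 tags) within their range of 102.1 to 121.7. The log2 difference was 0.34 ± 0.11 (SE, n = 4 and 4, a 1.27-fold change; limma adjusted p = 0.0231). Leaving out KO replicate 1_2, 1_3 or 2 or WT replicate 1_2 or 1_3 gave adjusted p-values of 0.0501 to 0.0916 in limma, and with replicates 1_2 and 1_3 counted as 1 sample the difference was 0.29 and the adjusted p 0.116.

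Near Ccl3, Ccl4 and Ccl5, the Ccl3 promoter gave the smallest adjusted p of all member regions. This region (chr11:83649095-83649989) covers the start site with its summit 211 bp upstream of the GENCODE start, within the printed promoter. It held 120, 106, 83 and 73 tags in KO and 67, 83, 98 and 68 in WT. Scaled tags were 119.5, 107.1, 93.6 and 86.6 in KO and 64.8, 61.9, 89.7 and 76.6 in WT, so that only KO replicate 3 fell below WT replicate 3. The log2 difference was 0.48 ± 0.13 (SE, n = 4 and 4, a 1.39-fold change; limma adjusted p = 0.00822, exact two-sided permutation p = 0.0571). Without KO replicate 1_2 the difference was 0.40 and the adjusted p was 0.0592, and with replicates 1_2 and 1_3 counted as 1 sample they were 0.36 and 0.0997 (limma). With the deposited fold in place of tags the difference was 0.16 and the adjusted p 0.396 (limma). A weaker region inside Ccl3, 957 bp past the start in an intron, held 24 to 45 tags in KO and 25 to 33 in WT (log2 difference 0.32, limma adjusted p = 0.279). The region with the most tags near Ccl3, which had the highest −log10 p-value percentile of all member regions (94.3, against 89.7 for the region 7690 bp upstream of Ccl6), lay 8980 bp downstream of its start, past the gene, at 172 to 234 tags in KO and 198 to 238 in WT (log2 difference 0.09, limma adjusted p = 0.565).

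Ccl4, which lies beside Ccl3 and is read in the opposite direction, had the only member region whose number of libraries with a peak differed by at least 3. This small region, 246 bp before the Ccl4 start (chr11:83662247-83662537), held 22, 20, 22 and 18 tags in the 4 KO libraries and 25 tags in WT replicate 3, with no peak in WT replicates 1_2, 1_3 and 4. After scaling the KO peaks held 20.2 to 24.8 tags and the single WT peak, at 22.9, lay within that range. From the background at this site, the 3 WT libraries without a peak (1_2, 1_3 and 4, in that order) would have needed about 14, 17 and 13 tags for a call, or 13.5, 12.7 and 14.7 after scaling, and levels below these would not be listed. The main Ccl4 region, 1181 bp past the start in an intron (chr11:83663553-83663982), held 67, 57, 74 and 63 tags in KO and 82, 76, 86 and 64 in WT. Scaled tags overlapped (log2 difference −0.02, 95% interval −0.30 to 0.26, limma adjusted p = 0.944).

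Ccl5 had no region within 1 kb of its start site. The nearest region in every library lay 2872 bp upstream and held 14 to 38 tags in KO and 23 to 37 in WT (log2 difference −0.04, 95% interval −0.45 to 0.37, limma adjusted p = 0.926). The region with the most tags in its upstream flank, at 13941 bp, was several times higher, at 111 to 127 tags in KO and 107 to 131 in WT (log2 difference 0.23, limma adjusted p = 0.189).

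**Figure D2:**
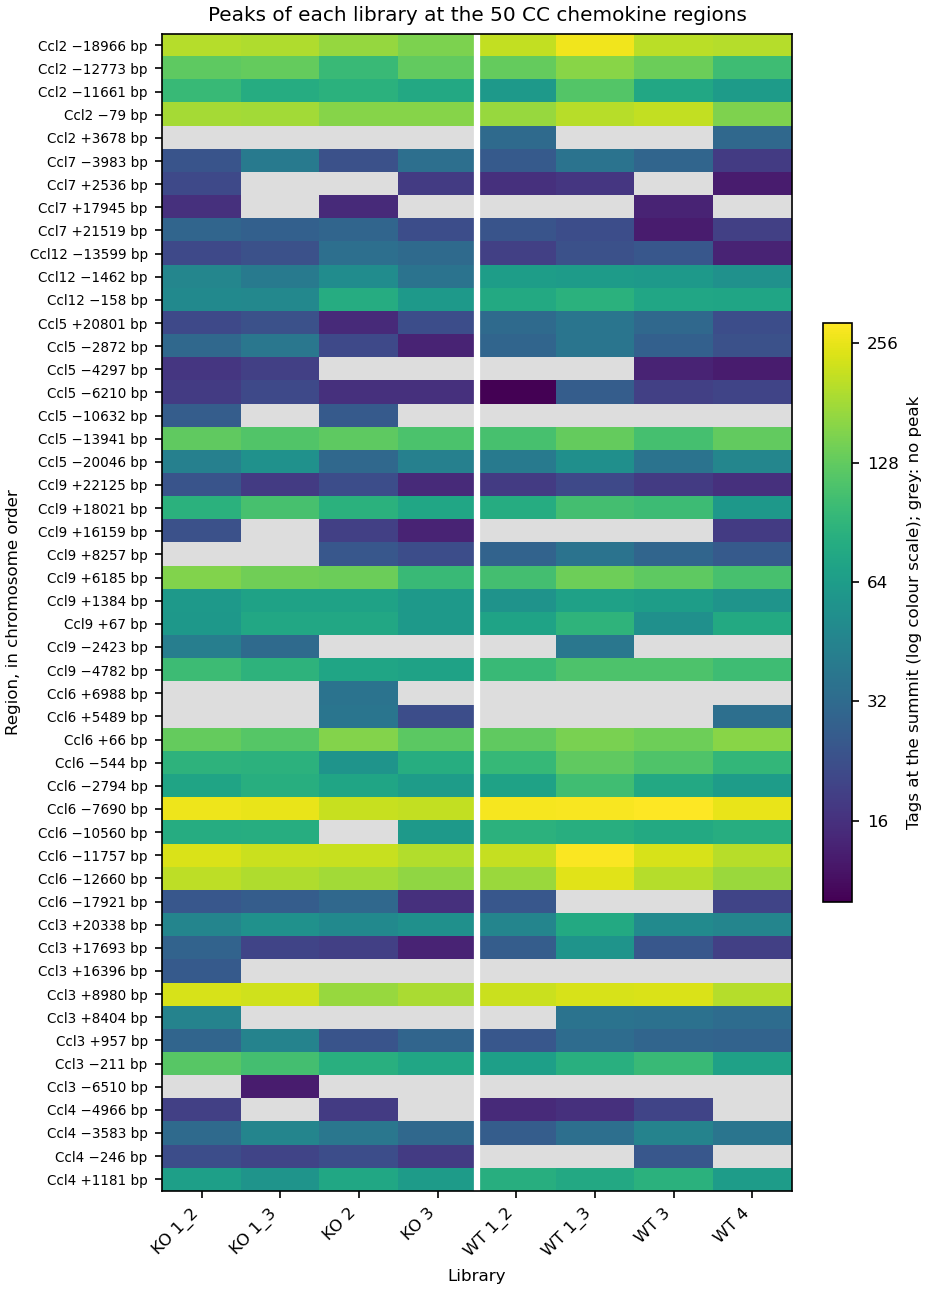
Tags at the summit of each library's peak (columns, KO left and WT right of the white line; log color scale) for the 50 regions in chromosome order (rows, named by summit distance from the nearest member's start site, + downstream and − upstream), with gray where the library had no peak. Gaps fall in both genotypes, most of them on rows with few tags but 1 on the row 10560 bp upstream of Ccl6 at 62 to 87 tags in the other 7 libraries, and the row 246 bp upstream of Ccl4 has 4 KO peaks and 1 WT peak.

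With a peak in all 8 libraries for 33 of 47 regions (70.2%), the members were near the share of all regions, 65.3%. No member region had a peak in every library of 1 genotype and in none of the other, where 0.285% of all regions did so for KO and 0.82% for WT. At least 3 more KO than WT libraries had a peak at 1 of 47 regions (the one before Ccl4), with 1.2% among all regions, and at least 3 more WT libraries at 0 of 47, with 3.46% among all. The 17 regions that lacked a peak in some library held 13 to 87 tags where called, and their median percentile by −log10 p-value was 16.1, against 64.1 for the 33 present everywhere. Each library had a peak at 39 to 45 of the 50 regions, with 39 to 45 in KO and 39 to 42 in WT.

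**Figure D3:**
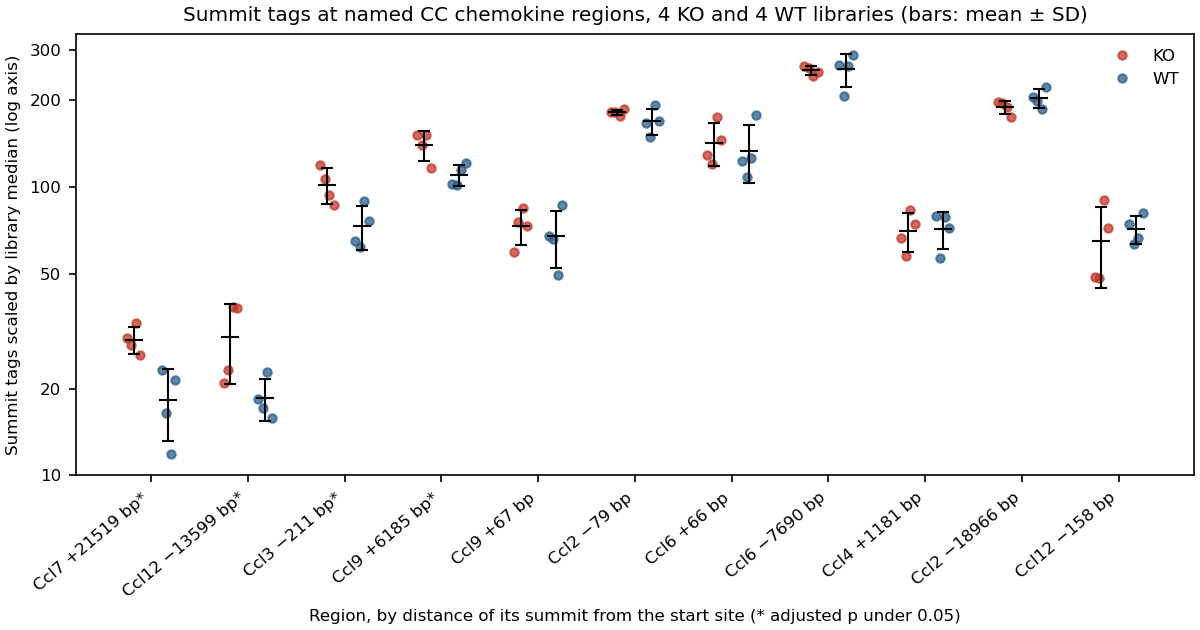
Tags at the summit after scaling by the library median (log axis) for 11 named regions present in every library, with KO libraries in red, WT libraries in blue, and bars for mean ± SD (n = 4 each). At the 4 starred regions on the left the KO mean is above the WT mean with an adjusted p under 0.05, and the region downstream of Ccl7 alone has no overlap between genotypes.

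In the fit over all regions, 4 of the 33 member regions were higher in KO (12.1%), where the share of all 47499 regions called higher was 5.81%, and 0 of 33 were lower, where 7.03% of all regions were. The 4 are those described near Ccl3, Ccl7, Ccl9 and Ccl12. At an unadjusted p of 0.05 (limma) the counts were 8 higher and 1 lower. Over all 47499 regions they were 6714 and 5753. Of the 33 differences 23 were above 0 and 10 below, and their median was 0.13, with 0.04 over all regions. KO libraries were all above WT libraries at 1 of 33 member regions, where 8.25% of all regions were, and all below at 0 of 33, where 7.91% were. Just short of the threshold was the region 11661 bp upstream of Ccl2, at 76 to 96 tags in KO and 61 to 117 in WT (log2 difference 0.35 ± 0.13 SE, limma adjusted p = 0.057).

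Whether the 4 calls passed depended on the scaling or unit. All 4 kept an adjusted p under 0.05 with quantile normalization (limma), but none did in the settings that follow. With libraries scaled by background tag depth in place of the median, 0 of the 33 member regions passed the limma threshold in either direction. Over all regions 575 were higher and 1988 lower, in place of 2759 and 3337. At an unadjusted p of 0.05 (limma), 3 member regions were higher and 0 lower, with 1977 and 4960 over all regions. When the deposited fold, which divides by the local background, took the place of the tags, 0 member regions passed as well. Over all regions 645 were higher and 1042 lower. Unadjusted, 2 member regions were higher and 1 lower, with 5246 and 3793 over all regions. For the regions near Ccl7, Ccl12, Ccl9 and Ccl3, in that order, the log2 differences were 0.67, 0.59, 0.29 and 0.42 with background tag depth and 0.64, 0.55, 0.19 and 0.16 with the deposited fold. Which scaling or unit follows the cells more closely was not tested.

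**Figure D4:**
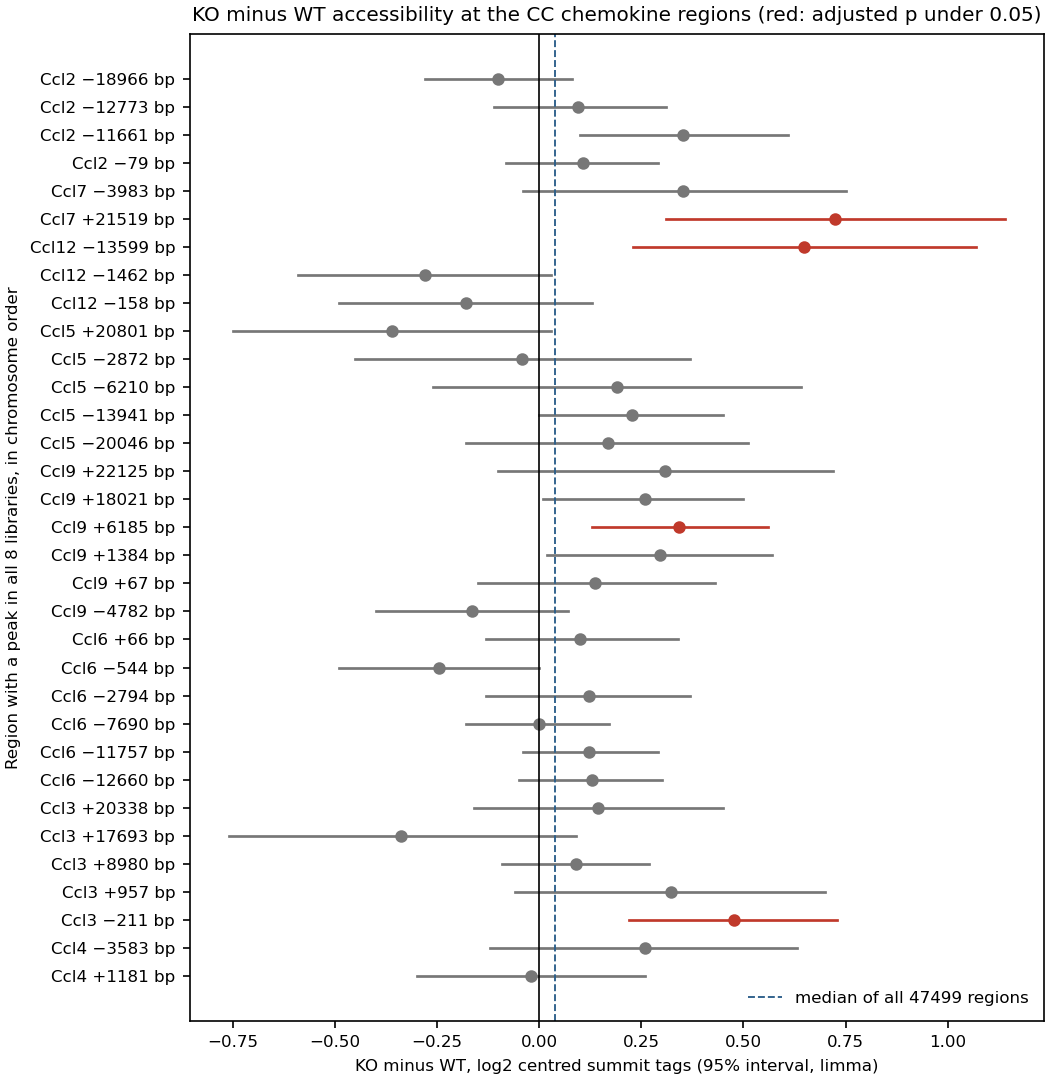
KO minus WT difference in log2 scaled tags (points) with its 95% interval from limma (lines) for the 33 regions present in every library, in chromosome order; the dashed line is the median over all 47499 regions. The 4 red regions, with an adjusted p under 0.05, all lie to the right of 0. No interval of the strongest region near the start of Ccl2, Ccl12, Ccl9, Ccl6 or Ccl4 leaves 0 out. The interval of the region 544 bp upstream of Ccl6 ends just below 0.

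**Figure D5:**
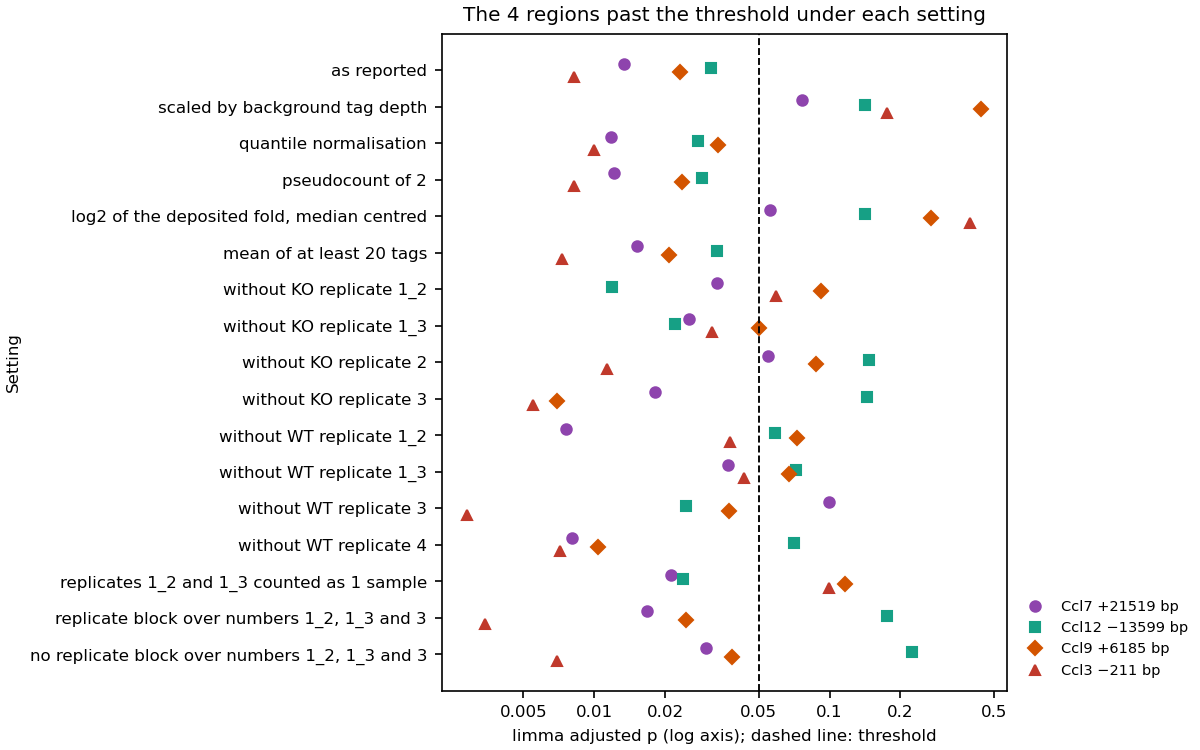
Adjusted p from limma (log axis) for the 4 regions that passed the threshold, under the reported setting and 16 alternatives (rows), with the dashed line at 0.05. All 4 points lie right of the line when libraries are scaled by background tag depth and when the deposited fold is used.

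Other genes of the chemokine system were counted in the same way, with windows of 20 kb. Beside these counts stand the shares over all 47499 regions, 5.81% called higher in KO and 7.03% lower (limma). Of 11 other CC chemokines, 3 (Ccl22, Ccl24 and Ccl25) had a promoter region in every library, 1 (Ccl17) in some and 7 in none. In their windows, 1 of 19 fitted regions was higher in KO, which is the region near Ccl7 and Ccl11 already described, and 2 were lower. The lower ones lay near Ccl22, a ligand of CCR4 (96, 87, 88 and 87 tags in KO; 134, 227, 153 and 121 in WT; log2 difference −0.57, limma adjusted p = 0.000123), and near Ccl26 (29 to 45 tags in KO and 63 to 85 in WT; −0.90, limma adjusted p = 3.92e-05). KO lay below WT in every library at both.

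Of 16 CXC and other chemokines, 6 had a promoter region in every library, among them that of Cxcl2, a neutrophil chemoattractant, at 236 to 456 tags, and none of the 6 differed between genotypes at the threshold. In their windows 1 of 36 fitted regions was higher and 1 lower, where 5.81% and 7.03% of all regions were. Of 13 receptor and decoy receptor genes, Ccr1, Ccr2 and Ccrl2 had a promoter region in every library, at 190 to 260 tags for Ccr1 and 32 to 65 for Ccr2, and none of the 3 passed the threshold (log2 difference 0.19 for Ccr1 and −0.33 for Ccr2, limma adjusted p = 0.153 and 0.166). Over the receptor windows 0 of 45 fitted regions were higher and 2 were lower, near Ccr6 and Ccr8, beside the same shares of all regions.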

How the data were processed

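Tn5-based ATAC-seq libraries were made from sorted AMs, 4 KO and 4 WT, grouped by the sample titles. Per the study's methods, the authors used Cutadapt for trimming and Bowtie2 for alignment to mm10, dropped duplicates and low-quality pairs, extended cut sites to 200 bp and called peaks per library with MACS3. Each deposited list gives per peak the position, a display score (not used), the fold over local background, a ratio with 1 added to each term, −log10 p-value and −log10 q-value as deposited by the authors, and the summit. Lists hold no read counts, so the authors' count test could not be fitted. A missing peak means only that the q threshold was not reached.

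Whole tags at each summit were solved from fold and p-value under the Poisson model, and they returned the p-value of 100% of peaks within a relative error of 1e-05. Using tags across lists goes beyond their purpose. log2(tags + 0.5) was centered on each library's median, taken over 47499 regions found in every library, and fitted with limma 3.58.1 (trended prior, R 4.3.3; Benjamini-Hochberg adjusted p under 0.05, two-sided). Fold changes understate changes at low tags. P-values set the difference between genotypes against the spread between libraries, which may be partly technical. Under the trended prior that spread is pooled with the trend over all fitted regions. SEs, intervals and limma p-values therefore rest largely on other regions, not only on a region's own libraries. At the Ccl3 promoter the unadjusted limma p was 0.000516. The exact permutation test, which uses that region alone and cannot go below 0.0286, gave 0.0571. Scripts ran in Python 3.11.15.

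Members and gene lists were chosen with earlier results of these data known. Regions described in full are, for each member, the strongest one by mean tags within 1 kb of a start site, every member region past the limma threshold, those with a difference of at least 3 libraries, and the strongest of each group of genes. The others were named after their values were seen. Alternatives were 3 scalings or units, another pseudocount, a tag minimum, other merging, window and threshold settings, left-out libraries, merged replicates and a replicate block.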

Additional observations from a re-analysis of the deposited data

How the results depend on the processing

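The number of member regions past the limma threshold, 4 as reported, was 4 with quantile normalization, with a pseudocount of 2 and with 50 bp of overlap to merge peaks, and 5 with a mean of at least 20 tags. It was 0 with background tag depth and with the deposited fold, 2 with replicates 1_2 and 1_3 counted as 1 sample, and 1 to 4 when each library was left out: 1 without KO replicate 2, and 2 without KO replicate 1_2 or WT replicate 1_2. Over all regions, 6096 passed as reported, 2563 with background tag depth and 1687 with the deposited fold. In these settings 0 member regions passed as lower. The region 11661 bp upstream of Ccl2 passed in 3 of the settings and the one 13941 bp upstream of Ccl5 in 2. Of 33 member regions with a peak in all libraries, 19 were left with windows of 10 kb and 30 to 41 under the other alternatives. The count of genotype-specific member regions, 0, became 1 (the region before Ccl4) without WT replicate 3, and leaving out each library gave 0 to 1.

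Differences near 0 changed sign. With the deposited fold, the log2 difference was −0.036 at the Ccl2 promoter and 0.088 at the Ccl12 promoter. The region 7690 bp upstream of Ccl6 came to 0.005 with a mean of at least 20 tags, 0.08 with the replicate block and 0.08 without the block over the same 6 libraries, and −0.10 to 0.06 with 1 library left out. The main Ccl4 region came to 0.008 with replicates 1_2 and 1_3 as 1 sample and −0.13 to 0.072 with 1 library left out. Leaving out 1 library gave −0.003 (without WT replicate 3) to 0.267 at the Ccl9 promoter and −0.002 (without KO replicate 2) to 0.245 at the Ccl6 promoter. None of these passed the threshold under any setting. The cause was not tested.

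With a replicate block over numbers 1_2, 1_3 and 3, 4 member regions passed, and 3 without the block over the same 6 libraries, an alternative chosen after seeing the data. Of the 4 reported calls, 3 were among them in each case; the region upstream of Ccl12 had an adjusted p of 0.175 with the block and 0.225 without (limma). Same-numbered KO and WT libraries were not treated as pairs, because the correlation of their deviations was 0.056, 0.116 and 0.037, not above 0.1 in all. Each library of numbers 1_2, 1_3 and 3 nevertheless correlated best with its own number in the other genotype, a hint from the data and not from the design. Depth limits the weakest regions, where a peak needed 6 to 9 tags even at genome-wide background.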

Other observations

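Dixon's ratio was examined in each genotype, over 4 libraries, for the 11 named regions present in every library and for the number of member regions with a peak, which makes 24 sets. It exceeded the 95% critical value in 0 of them, where chance gives about 1 in 20.

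In the stretch from Ccl9 to 12660 bp upstream of Ccl6 the background at member regions was 4.1 to 16.13 times the genome-wide one. The region 10560 bp upstream of Ccl6, with 62 to 87 tags in the 7 libraries that listed it, had no peak in KO replicate 2, where about 39 tags would have been needed. The region 6988 bp downstream of the Ccl6 start was listed at 36 tags in KO replicate 2 only, and needed about 18 to 30 tags elsewhere.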
